A study of Mus musculus with 3 samples.

Results

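Mural cells, the pericytes and smooth muscle cells that wrap blood vessels, were compared with fibroblasts within 3 mouse pancreatic tumours. Both were picked from single-cell counts by a gate on a few genes. Kept cells had at least 500 detected genes and at most 20% mitochondrial counts, and cells of both arms had no count of Epcam (epithelial) or Pecam1 (endothelial). A mural cell had at least 1 count of at least 3 of 5 genes: Rgs5, Higd1b, Notch3, Cox4i2 and Ndufa4l2. A fibroblast had at least 2 counts of Dcn, at least 1 of Col3a1, at least 1 of Mfap5 or Islr, and none of the 5 mural genes. Of 19576 barcodes, 19302 were kept, of which 716 met the mural gate and 2746 the fibroblast gate, 3462 cells in all.

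The 3 tumours grew in KPf/fC mice, a genetic model of pancreatic cancer driven by Cre in pancreatic cells. The labels do not name the Cre driver, the age or the treatment of the mice, and do not say whether each tumour came from its own animal, so the p-values measure the spread between these 3 samples. Cells had been sorted as CD45-, CD31- and PDGFRa-, which takes out blood cells, endothelial cells and many fibroblasts, and were profiled with the 10x 3' v2 kit, which counts transcripts by unique molecular identifiers (UMIs). Within each tumour the 2 arms shared the library and the sort. Each tumour gave 1 sum of UMI counts per arm, so every difference below is paired over 3 tumours. Fibroblasts here are therefore those that passed a sort against surface PDGFRa, and their gate asks for Dcn and Col3a1.

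Mural cells share a basement membrane with the endothelium. They hold tone through smooth muscle actin and myosin under the control of vasoactive receptors, are recruited by PDGF-B acting on PDGFRb, and are specified by Notch3 and its Hey and Hes target genes. Fibroblasts lay down the interstitial matrix of fibrillar collagens, small proteoglycans and elastic fibres. In pancreatic cancer they form most of the stroma and release complement proteins, chemokines and secreted regulators of the Wnt and IGF pathways.

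Mural cells made up 4.48%, 3.01% and 3.68% of the kept cells of tumours 1, 2 and 3 (260, 183 and 273 cells; mean 3.72% ± 0.735, SD, n = 3). Fibroblasts made up 17.1%, 6.01% and 18.7% (994, 365 and 1387 cells; mean 13.9% ± 6.91, SD, n = 3), and were scarcest in tumour 2. The size of that gap depended on the gate. With 1 mural gene allowed in fibroblasts their shares were 22.2%, 11.0% and 21.2% (1288, 670 and 1575 cells). The exact binomial 95% intervals of the mural shares, which cover counting error only, ran from 3.96% to 5.05%, 2.60% to 3.48% and 3.26% to 4.13%. Median depth per cell was lower in mural cells (5348, 5884 and 3397 UMIs) than in fibroblasts (6911.5, 7226 and 4795 UMIs). The 3 libraries held 60801677, 67262634 and 53162622 UMIs in all. The mural sums held 1607840, 1261844 and 1086347 UMIs and the fibroblast sums 7727154, 3053609 and 7322786. Levels are given as CPM, a gene's UMIs scaled to a total of 1000000 for the sum, which is a mean over the cells of an arm, and always in the order tumour 1, 2, 3. Finding no UMI of a gene still allows up to 1.87, 2.38 and 2.76 CPM in the mural sums and 0.388, 0.982 and 0.410 in the fibroblast sums (3 counts). Tumours 1 and 2 had 50 barcodes in common, 1 and 3 had 65, and 2 and 3 had 57; inside the arms, 2 of these joined a mural cell to a fibroblast and 2 joined fibroblasts.

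The genes of the gate describe the arms and were not tested. Rgs5, a regulator of G protein signalling that marks pericytes, stood at 4532, 3935 and 6315 CPM in mural cells. Notch3, the mural Notch receptor, stood at 227, 192 and 394. By the gate, the 5 mural genes were at 0 in fibroblasts. Dcn, the proteoglycan decorin, was seen at 545, 365 and 373 in mural cells and 5983, 2892 and 6704 in fibroblasts, and Mfap5, a microfibril protein, at 71.5, 151 and 32.2 and 1152, 990.0 and 1101. At least 2 Dcn UMIs were found in 12.3%, 16.9% and 8.79% of mural cells.

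RNA of other cell types was not equal in the arms. Of 9 mesothelial markers, all 8 that were tested were lower in mural cells, beside 12.4% of all tested genes. The 9 summed to 179, 87.2 and 85.6 CPM in mural cells against 845, 599 and 505 in fibroblasts. They were higher still in Epcam-positive cells, at 2318, 1873 and 2065 CPM. Whether this RNA in the arms came from mesothelial or epithelial cells was not tested. Dropping every cell with a UMI of Msln, Upk3b, Lrrn4, Upk1b, Nkain4 or Gpm6a (a choice made after seeing the data) left 234, 166 and 246 mural cells and 667, 267 and 945 fibroblasts. The 13 leukocyte markers summed to 55.4, 34.1 and 38.7 CPM in mural cells and 478, 209 and 195 in fibroblasts, most of it Cd74. The 12 endothelial markers summed to 708, 495 and 654 in mural cells and 174, 171 and 146 in fibroblasts. That sum rested on Emcn, Esam, Flt1 and Ecscr. The endothelial receptor Kdr, in contrast, was at 2.49, 0 and 1.84 in mural cells and 22.4, 13.8 and 13.1 in fibroblasts, and the endothelial cadherin Cdh5 had 4 UMIs in the mural and 155 in the fibroblast sums. The acinar markers summed to 2087 CPM in the mural cells of tumour 1 and to 67.4 and 119 in tumours 2 and 3, against 708, 49.8 and 178 in fibroblasts. Without the cells that had a mesothelial UMI 2076 of 9440 tested genes were called. Another filter chosen after seeing the data dropped cells with a UMI of Cdh5, Kdr, Flt1, Egfl7, Plvap or Cldn5, although Flt1 was itself called higher in mural cells. It left 146, 103 and 207 mural cells and 752, 294 and 1212 fibroblasts, and 1726 of 9157 tested genes were called. The part of these RNAs in the differences below was otherwise not tested.

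The comparison was broad. Of 10234 tested genes, 1050 were higher in mural cells (10.3%) and 1267 lower (12.4%), 2317 in all (22.6%), at a Benjamini-Hochberg adjusted p under 0.05 in edgeR's quasi-likelihood test with the tumour as a block. A difference of at least 4-fold was called for 296 genes higher and 459 lower, which is 7.38% of the genes tested. The counts of each gene list below stand beside the 10.3% higher and 12.4% lower of all tested genes. The median log2 fold change (mural minus fibroblast) of all tested genes was -0.0022, and of the 2317 called genes 2308 had the same sign in all 3 tumours. Arms that do not overlap were common: the 3 mural sums lay above all 3 fibroblast sums for 1418 of the 10234 tested genes and below them for 1322. Without tumour 1 the test called 1289 genes, without tumour 2 it called 2591 and without tumour 3 it called 1954. With the tumour left out of the model it called 979. The plot of every tested gene shows how the large differences spread over abundant and rare transcripts.

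**Figure D1:**
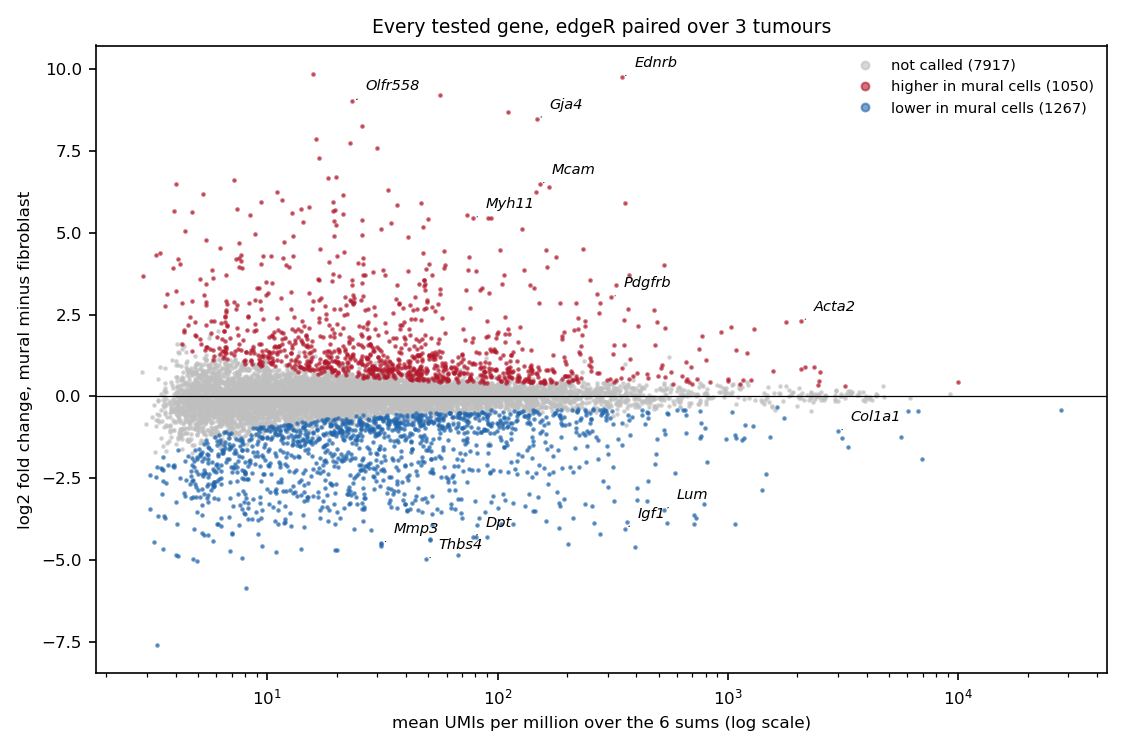
Log2 fold change of each tested gene (mural minus fibroblast, vertical axis) against its mean level over the 6 sums in CPM (horizontal axis, log scale). Each point is 1 gene; 1050 red points were called higher and 1267 blue points lower in mural cells, and grey points were not called.

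The genes highest in mural cells by log2 fold change, among those called with the same sign in 3 tumours and a mean of at least 20 CPM, were led by the endothelin B receptor Ednrb. It stood at 417, 340.0 and 1313 CPM in mural cells and 0.518, 0 and 1.5 in fibroblasts, highest in the mural cells of tumour 3 and far apart in every tumour. Its log2 fold change was 9.76 ± 0.26 (SE), with an edgeR adjusted p of 1.01e-06. Gja4, the vascular gap junction protein connexin 37, stood at 267, 171 and 450.1 against 1.04, 0.327 and 0.819, a log2 fold change of 8.48 ± 0.24. Mcam, the adhesion molecule CD146 of vessel walls, stood at 281, 206 and 414 against 2.46, 7.2 and 1.78 (6.48 ± 0.44; 7.23 without tumour 2, 5.84 without tumour 3). Ppp1r14a, the inhibitor of myosin phosphatase that sustains contraction, stood at 463, 403 and 128 against 5.56, 5.24 and 0.956 (6.40 ± 0.19). Neither arm overlapped the other for any of these.

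The rest of the 12 highest were Apold1 (8.68 ± 0.22 on the log2 scale), Dmp1, Gimap6, Serpina1b, H2-M9, the olfactory receptor gene Olfr558, 1810011H11Rik and Tusc5. Dmp1 stood at 131, 34.1 and 14.7 CPM in mural cells, highest in tumour 1, and its log2 fold change of 7.60 ± 0.43 was 5.94 without tumour 1 and 8.23 without tumour 3. Gimap6 stood at 35.5, 19.0 and 145, highest in tumour 3, and its 6.32 ± 0.41 was 5.27 without tumour 3 and 7.2 without tumour 1. Olfr558 had 188 UMIs in mural cells and 1 in fibroblasts, a ratio of rates of 860.3 (95% interval 153 to 34159). H2-M9, an MHC class I gene whose count is uncertain because close relatives share its sequence, had 400 and 3 UMIs, a ratio of 610.2 (95% interval 207 to 2971). It stood at 50.4, 46.0 and 240 CPM in mural cells, highest in tumour 3, and its log2 fold change of 9.20 was 7.70 without tumour 3. 1810011H11Rik had 214 and 2 UMIs, a ratio of 489.7 (95% interval 134 to 4069). It stood at 66.5, 68.2 and 19.3 CPM in mural cells, and its log2 fold change of 8.28 was 7.16 without tumour 1 and 10.5 without tumour 2. Tusc5 had 187 and 3 UMIs, a ratio of 285 (95% interval 96.1 to 1396). These intervals cover counting error only. Serpina1b, an antitrypsin gene with near-identical copies that counting may split, ran from 13.1 CPM in the mural cells of tumour 1 to 235 and 623 in tumours 2 and 3, against 0.259, 0 and 11.1 in fibroblasts. Its log2 fold change was 6.24 ± 0.46 (8.35 without tumour 3), and the call was lost without the tumour block (edgeR adjusted p = 0.0650). The largest edgeR adjusted p among the 12 was 5.03e-05.

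Of the 12 genes lowest in mural cells, the first was Thbs4. This gene, which encodes an adhesive glycoprotein of the matrix, stood at 1.87, 5.55 and 1.84 in mural cells and 121, 51.4 and 111 in fibroblasts, with a log2 fold change of -4.98 ± 0.40 that was -6.04 without tumour 2 and -4.35 without tumour 1. Penk, the enkephalin precursor, stood at 36.1, 48.3 and 13.8 against 788, 644 and 838 (-4.60 ± 0.34). Pi16, a marker of adventitial fibroblasts, stood at 28.0, 5.55 and 17.5 against 532, 96.9 and 528 (-4.52 ± 0.19), with tumour 2 lowest among the fibroblasts. The matrix protein dermatopontin, Dpt, stood at 11.8, 7.92 and 2.76 against 279, 60.3 and 106 (-4.30 ± 0.32). The others were the Wnt antagonists Wif1 and Sfrp4, Ptx3, Tac2, Mmp3, Chl1, Svep1 and Dpep1, with log2 fold changes between -4.86 and -4.31, and the largest edgeR adjusted p of the 12 was 0.000778. Leaving out 1 tumour moved these values most for Ptx3 (-3.52 without tumour 1, -6.24 without tumour 2), Tac2 (-6.03 without tumour 2, -3.35 without tumour 3) and Mmp3 (-3.27 without tumour 1, -5.22 without tumour 3); Svep1 was at -5.05 and Dpep1 at -3.68 without tumour 1.

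Pericyte genes outside the gate were nearly uniform. Of 18 listed, 16 were tested, 14 were higher in mural cells and none was lower (median log2 fold change 2.94). Pdgfrb, the receptor through which PDGF-B recruits pericytes, stood at 501, 433 and 726 CPM in mural cells and 55.3, 90.4 and 53.8 in fibroblasts. The lowest mural tumour lay above the highest fibroblast tumour, and the log2 fold change was 3.02 ± 0.25 (edgeR adjusted p = 9.21e-05). For shares after thinning, here and below, each cell was thinned to 3000 UMIs and cells with fewer were left out. In tumour 3 this dropped 110 of 273 mural cells, 214 of 1387 fibroblasts and 157 of 2793 Epcam-positive cells. It dropped no cell of these arms in the other tumours. A Pdgfrb UMI was then seen in 78.1%, 70.5% and 84.7% of mural cells and in 15.6%, 26.6% and 14.8% of fibroblasts. Among Epcam-positive cells, which should lack the gene, the shares were 0.478%, 0.339% and 0.379%. Those cells were chosen to have no UMI of Dcn or the 5 mural genes, so they may understate the background. Without thinning the shares were 93.5%, 84.2% and 87.5% of mural cells and 29.9%, 44.7% and 22.5% of fibroblasts. Fibroblasts thus held Pdgfrb above the level of these Epcam-positive cells and below that of mural cells.

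The ATP-sensitive potassium channel of mural cells is built from Kcnj8, its pore, and Abcc9, its regulatory subunit. Abcc9 stood at 363, 231 and 330.5 in mural cells and 19.4, 12.4 and 26.1 in fibroblasts (3.96 ± 0.17, edgeR adjusted p = 9.61e-06). Kcnj8 stood at 448, 298 and 246 and 56.0, 28.2 and 46.3 (2.87 ± 0.20). Both genes were apart in all 3 tumours. The gap junction gene Gjc1 (4.5 ± 0.17), the proteoglycan NG2 gene Cspg4 (3.56 ± 0.24), vitronectin, Vtn (3.56 ± 0.43), and the transcription factor Ebf1 (2.68 ± 0.12) were also higher. Steap4 (0.08 ± 0.20) and Anpep (-0.14 ± 0.36), which are listed as pericyte genes, were not called, and their arms overlapped.

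**Figure D2:**
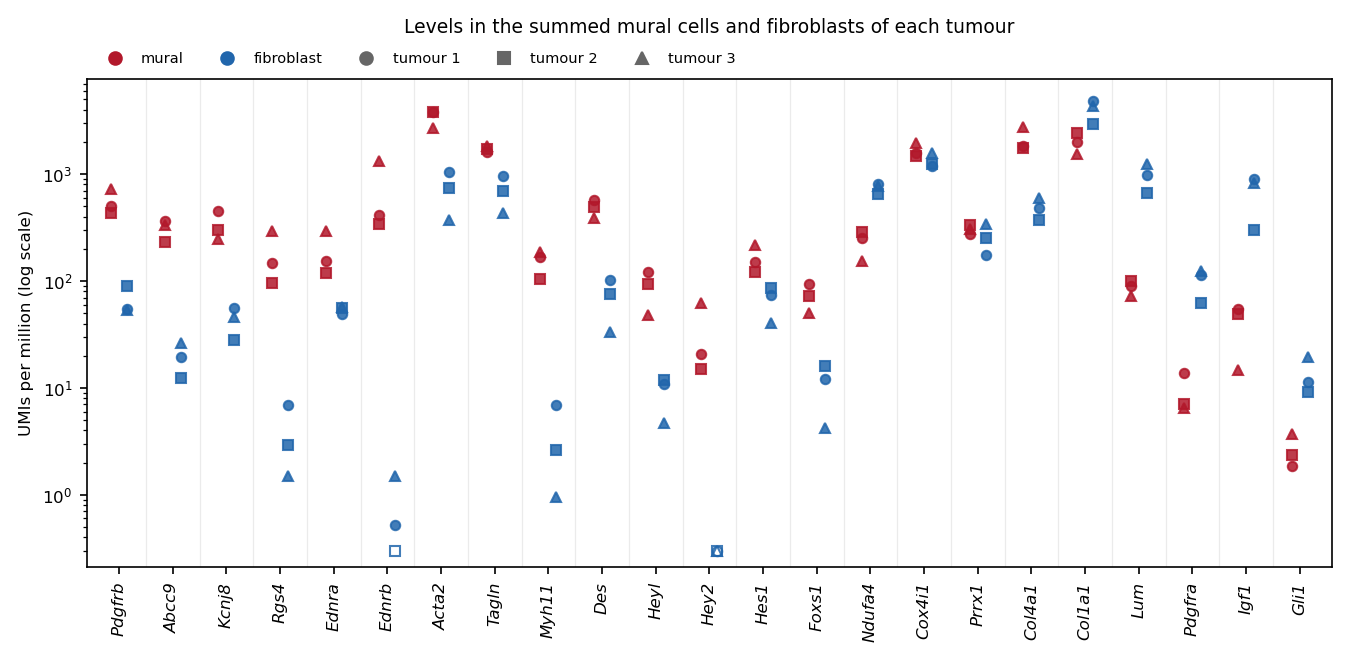
Level of 23 genes in CPM (log scale) in the summed mural cells (red) and fibroblasts (blue) of tumours 1 (circle), 2 (square) and 3 (triangle); open symbols at the bottom mark sums under 0.3 CPM. Ednrb and Hey2 are apart by the widest gaps, Cox4i1 and Prrx1 overlap, and Lum, Pdgfra, Igf1 and Gli1 lie lower in all 3 mural sums.

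The contractile genes of smooth muscle were higher as a group. Of 24 listed, 21 were tested, 19 were higher, none was lower, and the median log2 fold change was 2.32; 14 of them were called without the tumour block. Acta2, smooth muscle actin, stood at 3806, 3809 and 2699.9 in mural cells and at 1054, 738 and 374 in fibroblasts, which therefore carried it too (2.31 ± 0.19, edgeR adjusted p = 7.68e-05). Tagln, the actin-binding protein transgelin, stood at 1612, 1732 and 1840.1 against 969, 692 and 431, a smaller difference of 1.33 ± 0.23 (edgeR adjusted p = 0.00376). Des, the intermediate filament desmin, stood at 572, 497 and 391 against 103, 76.0 and 33.6 (2.84 ± 0.21). In tumour 3 the fibroblast level was the lowest for all of these genes.

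Other members of the list differed by more or by less. Myh11, smooth muscle myosin heavy chain, stood at 168, 105 and 186 in mural cells and 6.99, 2.62 and 0.956 in fibroblasts (5.44 ± 0.43, edgeR adjusted p = 6.97e-05), a difference of 6.56 without tumour 1 and 4.68 without tumour 3. Its UMIs came from a minority of the mural cells: 20.4%, 16.9% and 13.5% of them after thinning, and 25.4%, 25.1% and 22.7% before, against 3.12%, 1.37% and 0.505% of fibroblasts before thinning. Casq2, a calcium store protein (6.25 ± 0.46), Map3k7cl (5.74 ± 0.40), Sncg (5.56 ± 0.28) and Lmod1, an actin filament nucleator of smooth muscle (5.17 ± 0.41), were the other genes with a difference over 5 on the log2 scale. The light chain kinase Mylk (2.15 ± 0.15), the light chain Myl9 (2.65 ± 0.19) and the tropomyosins Tpm1 (1.43 ± 0.20) and Tpm2 (1.10 ± 0.14) were higher by less. Calponin, Cnn1, at 31.1, 34.1 and 11.0 against 23.4, 10.8 and 1.91, missed the threshold (1.12 ± 0.36, edgeR adjusted p = 0.0596), as did Smtn (0.63 ± 0.24, adjusted p = 0.102).

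Contractile genes are classic targets of serum response factor, which binds the CArG box, so the promoter windows of the genes called higher were searched for it. RefSeq windows (GRCm38.p6, 250 bases before to 50 after a start) were on hand for 14 of the 19 genes, and 2 of these genes, Myl9 and Ldb3, held the box (14.3%), as did 1.81% of the 27025 genes in the table. The search pattern for the box covers both strands at once, though a single copy need not read the same on both. The stretches around it are shown because these are the contractile genes whose windows hold it, with the box in capitals, 5′ to 3′ on the strand of the gene. The first, chr2:156775258-156775357, is on the plus strand, with the box starting 161 bases before the start of Myl9. The other, chr14:34588662-34588761, is on the minus strand, with the box 109 bases before one start of Ldb3 and 35 before another.
Myl9: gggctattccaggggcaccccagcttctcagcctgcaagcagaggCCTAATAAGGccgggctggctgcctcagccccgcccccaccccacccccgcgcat
Ldb3: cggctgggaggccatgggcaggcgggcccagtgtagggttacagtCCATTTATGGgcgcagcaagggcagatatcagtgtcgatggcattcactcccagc
Myl9 stood at 935, 669.7 and 863 in mural cells and 186, 116 and 91.1 in fibroblasts, and Ldb3 at 20.5, 2.38 and 6.44 and 4.4, 0.655 and 0.683 (2.32 ± 0.41), where the arms overlapped between tumours but not within them. The matches describe these windows only.

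Receptors, channels and cyclic nucleotide enzymes of vascular tone followed. Of 27 listed, 21 were tested, with 15 higher, 3 lower and a median log2 fold change of 2.68. Ednra, the second endothelin receptor, stood at 155, 119 and 295 in mural cells and 49.3, 56.3 and 57.6 in fibroblasts, so that unlike Ednrb it was well detected in both (1.67 ± 0.22, edgeR adjusted p = 0.000911). The angiotensin receptor Agtr1a stood at 80.9, 57.1 and 63.5 against 3.24, 0.655 and 0.683 (5.30 ± 0.34), and the cation channel Trpc6 at 37.3, 38.0 and 50.6 against 0.647, 0 and 0.683 (6.16 ± 0.36). Both subunits of the nitric oxide receptor, Gucy1a3 (3.42 ± 0.45) and Gucy1b3 (4.26 ± 0.25), were higher, with the cGMP kinase Prkg1 (2.40 ± 0.26) and the phosphodiesterases Pde3a (3.15 ± 0.22) and Pde5a (2.68 ± 0.21).

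The big potassium channel split between the arms. Its accessory subunit Kcnmb1 was higher in mural cells, at 39.2, 43.6 and 13.8 against 0.906, 3.27 and 0.546 (4.51 ± 0.35). Its pore Kcnma1 was lower, at 4.98, 7.13 and 2.76 against 33.9, 33.1 and 56.0 (-3.01 ± 0.33, edgeR adjusted p = 0.000349). The prostaglandin E receptor Ptger3 was also lower, at 14.3, 10.3 and 8.28 against 129.7, 160.1 and 94.8 (-3.57 ± 0.19), with Pde4d (-1.63 ± 0.32). In each case the mural and fibroblast tumours did not overlap, as for 1418 (mural above) and 1322 (mural below) of the 10234 tested genes.

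Rgs5 has relatives that also dampen G protein signals. Of 16 listed, 9 were tested, with 2 higher and 2 lower, beside 10.3% higher and 12.4% lower over all tested genes. Rgs4 stood at 147, 95.9 and 291 in mural cells and 6.86, 2.95 and 1.5 in fibroblasts (5.46 ± 0.49, edgeR adjusted p = 0.000129; 6.58 without tumour 1, 4.49 without tumour 3), and Rgs16 at 164, 87.2 and 229 against 40.9, 36.7 and 41.1 (1.90 ± 0.21). Rgs2 went the other way, at 41.7, 53.1 and 101 against 95.2, 60.9 and 500.5 (-1.36 ± 0.34, edgeR adjusted p = 0.0223), highest in the fibroblasts of tumour 3, and Rgs10 was lower as well (-0.71 ± 0.19). Both calls were lost without tumour 1, without the tumour block and without cells that had an endothelial UMI. The remaining 5 were not called.

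The gate used Notch3, so the rest of the Notch pathway was tested. Of 15 tested genes, 7 were higher and 1 lower (median 1.01). Among the target genes, Heyl stood at 121, 94.3 and 47.9 in mural cells and 10.9, 11.8 and 4.64 in fibroblasts (3.24 ± 0.17, edgeR adjusted p = 1.53e-05). Hey2 had 119 UMIs in mural cells (20.5, 15.1 and 61.7 CPM) and 2 in fibroblasts, a ratio of 272 (95% interval 73.7 to 2274). Nrarp, a feedback inhibitor, stood at 72.8, 51.5 and 27.6 against 1.04, 0.982 and 1.23 (5.38 ± 0.32). Hes1 stood at 151, 121 and 215 against 73.9, 86.5 and 40.7 (1.26 ± 0.31, edgeR adjusted p = 0.0207), and its call was lost without tumour 1 (adjusted p = 0.0675), without the tumour block (0.0635) and among mural cells with no Mmp9 UMI (0.0517).

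Among receptors and ligands, Notch1 stood at 37.9, 43.6 and 32.2 against 2.46, 5.24 and 1.64 (3.69 ± 0.28) and the ligand Jag1 at 101, 63.4 and 106 against 16.3, 13.1 and 10.2 (2.73 ± 0.21). Notch2 was lower in mural cells (-0.86 ± 0.19, edgeR adjusted p = 0.0114), a call lost without tumour 1, without the tumour block and without cells that had an endothelial UMI. Notch4, at 6.84, 4.75 and 8.28 against 3.62, 4.26 and 1.91, was not called (1.01 ± 0.45). Rbpj, the DNA-binding partner of all Notch receptors, was not called, at 33.6, 49.1 and 33.1 and 38.6, 52.1 and 41.0 (-0.24 ± 0.15, edgeR adjusted p = 0.320). The motif TTCCCAC, or GTGGGAA on the other strand, is the core bound by Rbpj. Of the 7 Notch genes called higher, 4 had a promoter window, and 1, Hey2, held the motif, against 7.25% of all genes in the table; Hey2 held it 207 bases before its start and again across the start itself. The first copy is shown, since Hey2 was the Notch target with the largest difference (chr10:30842939-30843033, GRCm38.p6, minus strand, motif in capitals).
Hey2: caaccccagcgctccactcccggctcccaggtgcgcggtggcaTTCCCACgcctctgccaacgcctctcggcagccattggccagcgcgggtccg
No window among these genes held both this motif and the CArG box, and a match is no evidence of binding.

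Other transcription factors tied to mural cells followed the same side. Of 17 tested, 14 were higher and 2 lower (median 2.07), and 9 were higher without the tumour block; Hey2 and Heyl stand in this list and in the Notch list. Foxs1 stood at 93.9, 72.9 and 50.6 in mural cells and 12.2, 16.0 and 4.23 in fibroblasts (2.81 ± 0.24, edgeR adjusted p = 0.000103). Epas1, the hypoxia-inducible factor HIF-2 alpha, stood at 267, 210.0 and 458 against 15, 5.89 and 18.8 (4.49 ± 0.20), and Mef2c at 198, 135 and 398 against 13.1, 21.3 and 12.7 (3.86 ± 0.37). Foxc2 (3.31 ± 0.49), Tbx3 (2.07 ± 0.24) and Nr2f2 (1.37 ± 0.12) were higher. Tbx20 had 24 UMIs in mural cells and none in fibroblasts, at least 36.6-fold higher against 3 counts over the fibroblast sums, and was not tested. Meis1 (-0.72 ± 0.21) and Meis2 (-1.09 ± 0.17) were the 2 lower genes; 1 gene of the list was lower when any 1 tumour was left out.

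Prrx1, a factor of mesenchyme in general, was not called and overlapped, at 274, 335 and 307 in mural cells and 176, 255 and 339 in fibroblasts (0.25 ± 0.16, edgeR adjusted p = 0.333). Its estimate was -0.01 once cells with a mesothelial UMI were left out. Of 27 tested fibroblast and mesenchymal factors, 5 were higher and 11 lower (median -0.46); without tumour 2, 8 of 28 were higher. Wt1 (-3.60 ± 0.29), Osr1 (-3.27 ± 0.32), Osr2 (-3.17 ± 0.44) and the oestrogen receptor Esr1 (-3.13 ± 0.36) were lower in mural cells; Wt1 is also a mesothelial gene. Meox2 stood at 22.4, 27.7 and 20.3 against 2.20, 0.982 and 0.819 (3.94 ± 0.37) and Zeb2 at 321, 298 and 187 against 129, 131 and 120.4 (1.00 ± 0.16), both higher. Twist1, Zeb1 and Snai1 were not called.

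The PDGF family divided by receptor. All 5 of its tested genes were called. Beside Pdgfrb, the ligand Pdgfa was higher in mural cells, at 419.8, 409 and 549 against 34.3, 78.9 and 18.0 (3.56 ± 0.41, edgeR adjusted p = 0.000459). Pdgfra, the receptor that the sort selected against, stood at 13.7, 7.13 and 6.44 in mural cells and 115, 61.6 and 123 in fibroblasts (-3.46 ± 0.23, edgeR adjusted p = 3.68e-05). After thinning, 30.0%, 17.3% and 29.3% of the sorted fibroblasts still had a Pdgfra UMI (52.0%, 34.5% and 44.6% before). Among Epcam-positive cells the shares after thinning were 0.239%, 0.611% and 0.455%. Those cells were chosen to have no UMI of Dcn or the mural gate genes, so they may understate the background here too. Pdgfc (-2.70 ± 0.40) and Pdgfrl (-1.34 ± 0.13) were lower in mural cells.

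Angiogenic ligands and receptors went both ways, with 7 of 16 tested genes higher and 6 lower. Angpt2, the ligand that destabilises vessels, stood at 29.9, 18.2 and 65.4 in mural cells and 0.776, 1.31 and 0.819 in fibroblasts (5.35 ± 0.39, edgeR adjusted p = 4.78e-05). Its counterpart Angpt1, which stabilises them, was lower in mural cells, at 9.95, 6.34 and 12.9 against 19.2, 28.2 and 43.7 (-1.62 ± 0.26). Flt1, a decoy receptor for VEGF, stood at 122, 136 and 70.0 against 6.86, 17.0 and 0.819 (4.03 ± 0.41), and the sphingosine phosphate receptor S1pr3 at 128, 62.6 and 59.8 against 11.6, 7.86 and 3.69 (3.43 ± 0.21). The VEGF ligands did not move together: Pgf was higher (2.64 ± 0.37), Vegfc (-2.0 ± 0.46) and Figf, the gene of VEGF-D (-2.98 ± 0.41), were lower, and Vegfa, at 56.6, 53.1 and 8.28 against 46.8, 56.0 and 12.7, was not called.

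The gate genes Cox4i2, Ndufa4l2 and Higd1b have relatives that most cells use. Cox4i1, the common form of cytochrome oxidase subunit 4, was not called, at 1571, 1468 and 1951 in mural cells and 1182, 1232 and 1575 in fibroblasts (0.27 ± 0.10, edgeR adjusted p = 0.0879), and was called when cells were thinned before gating (0.35, adjusted p = 0.0358). Ndufa4, the common form of the gene pair with Ndufa4l2, was lower in mural cells, at 251, 288 and 155 against 802, 646 and 774 (-1.76 ± 0.21, edgeR adjusted p = 0.000547). After thinning, a Ndufa4 UMI was seen in 34.6%, 44.8% and 27.0% of mural cells, 87.4%, 78.6% and 86.2% of fibroblasts and 70.6%, 70.9% and 84.3% of Epcam-positive cells. Before thinning the shares were 49.2%, 63.4% and 28.9% of mural cells and 96.4%, 94.8% and 90.8% of fibroblasts. Of 25 tested nuclear genes of the respiratory chain, only Atp5b (0.54 ± 0.12), Cycs (0.49 ± 0.13) and Uqcrc2 (0.48 ± 0.13) were called, all higher in mural cells, a share near the 10.3% of all tested genes. These calls were lost without tumour 1, without tumour 3 and without the tumour block in edgeR, where 2, 4 and 2 genes had an unadjusted p under 0.05, and DESeq2 called 1.

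Among 26 tested genes of glycolysis and the hypoxia response, 8 were higher and none lower (median 0.32). Without the tumour block 2 were called and without tumour 1 4, and without tumour 2 5 were higher and 4 lower. The count also moved with the gate. With at least 4 of the 5 mural genes asked for, 5 were higher and 4 lower (median 0.017). With cells thinned before gating, 3 of 23 were higher and 4 lower (median 0.096). With 1 mural gene allowed in fibroblasts, 5 of 27 were higher and 1 lower (median 0.061). Epas1 led the list, followed by Ankrd37 (1.57 ± 0.25), Pfkfb3 (1.51 ± 0.33) and Pfkp (1.22 ± 0.16). The glucose transporter Slc2a1 (0.46 ± 0.22), Pgk1 (0.61 ± 0.22) and Hif1a (0.26 ± 0.13) were not called. Several of these genes were lowest in tumour 3 in both arms, as with Tpi1, at 348, 442 and 107 in mural cells and 256, 362 and 98.6 in fibroblasts.

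Fibroblast genes outside the gate showed the opposite side. Of 26 tested, 23 were lower in mural cells and none was higher (median -3.14). Lum, the proteoglycan lumican, stood at 89.6, 99.9 and 72.7 in mural cells and 978, 663 and 1255 in fibroblasts (-3.47 ± 0.25, edgeR adjusted p = 4.64e-05). Abi3bp (-4.19 ± 0.20), Clec3b (-3.71 ± 0.34) and Pcolce2 (-3.59 ± 0.40) were lower by more. Col5a2 (-0.04 ± 0.13), Pcolce (-0.04 ± 0.15) and Gsn (-0.10 ± 0.25) were not called and overlapped between the arms.

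Collagens split by type. Of 23 tested chains, 6 were higher and 11 lower; without tumour 1, 7 of 22 were lower. Col1a1, the main chain of fibrillar type I collagen, stood at 1988, 2429 and 1536 in mural cells and 4796, 2910.3 and 4346 in fibroblasts (-1.07 ± 0.22, edgeR adjusted p = 0.00978; 0.106 without tumour 1). Mural cells thus carried Col1a1 in every tumour at a lower level, and Col1a2 followed (-1.54 ± 0.21). The mural level of Col1a1 differed with the number of mural gate genes seen. It stood at 3753, 2846 and 2442 in cells with 3 of the 5 and at 1016, 2054 and 629 with all 5. Col4a1, a chain of basement membrane collagen, was higher, at 1845, 1753 and 2750.5 against 483, 374 and 595 (2.07 ± 0.12, edgeR adjusted p = 2.13e-05). Its partner Col4a2 stood at 1105, 936 and 1581 against 275, 239 and 470.0 (1.86 ± 0.12). Col18a1, the source of endostatin, stood at 651, 637 and 779 against 37.7, 96.3 and 35.1 (3.72 ± 0.31). Within type VI collagen, Col6a3 was higher (1.57 ± 0.13) while Col6a1 (-1.03 ± 0.23) and Col6a2 (-0.67 ± 0.19) were lower, and within type V, Col5a3 was higher (2.07 ± 0.22) and Col5a1 lower (-1.06 ± 0.25).

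**Figure D3:**
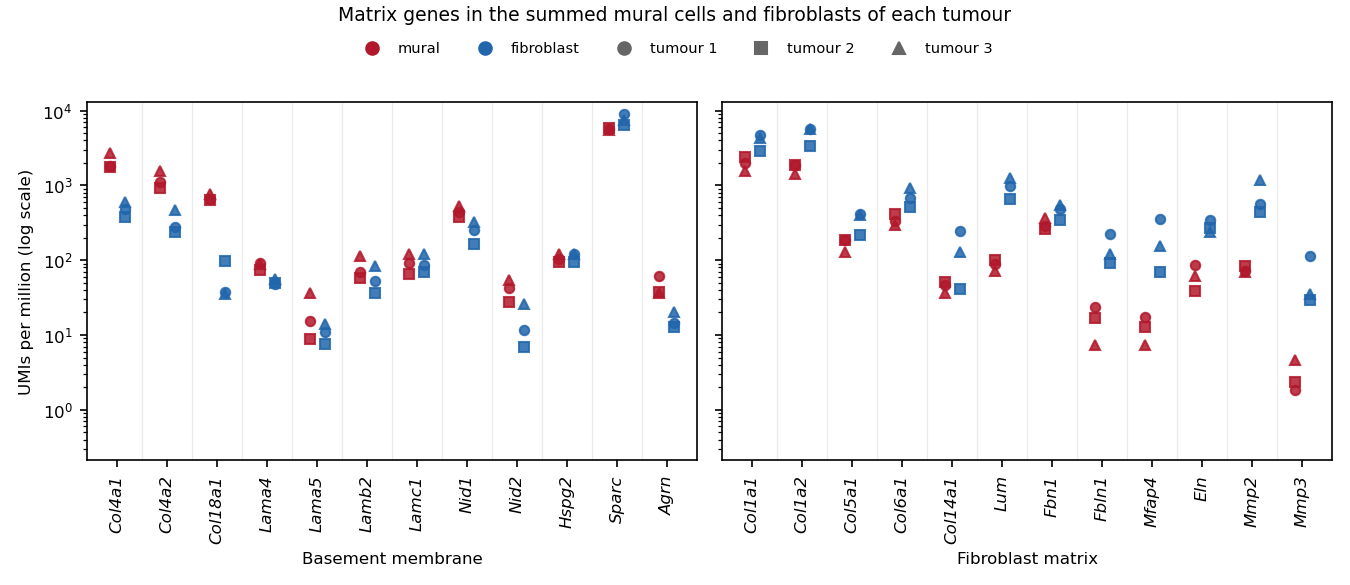
Level of matrix genes in CPM (log scale) in the summed mural cells (red) and fibroblasts (blue) of tumours 1 (circle), 2 (square) and 3 (triangle), with basement membrane genes on the left and genes of the fibroblast matrix on the right. The mural sums lie above all fibroblast sums for Col4a1, Col4a2 and Col18a1 and below them for Lum, Mmp2 and Mmp3.

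The basement membrane list had 9 of 19 tested genes higher and 4 lower, with 4 higher without the tumour block and 6 without tumour 1. The nidogens Nid1 (0.85 ± 0.14) and Nid2 (1.53 ± 0.23), agrin, Agrn (1.46 ± 0.25), and the laminin chains Lama4 (0.68 ± 0.14) and Lamb1 (0.61 ± 0.12) were higher. The shared laminin chain Lamc1, at 92.0, 65.0 and 121 against 86.6, 69.8 and 122, and the proteoglycan perlecan, Hspg2, at 105, 93.5 and 119.7 against 122, 93.7 and 119.6, were not called. Smoc2 (-3.45 ± 0.18), Col4a5 (-3.35 ± 0.35), Lama1 (-3.07 ± 0.35) and Sparc (-0.46 ± 0.12) were lower in mural cells.

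Small proteoglycans and elastic fibre genes were mostly lower. Of 8 tested small leucine-rich proteoglycans, 6 were lower, Ogn (-3.29 ± 0.36) and Podn (-3.02 ± 0.39) among them, and Aspn, asporin, was the 1 higher gene, at 447, 363 and 638 in mural cells and 89.9, 42.9 and 34.3 in fibroblasts (3.14 ± 0.33, edgeR adjusted p = 0.000297). Of 19 tested elastic fibre and microfibril genes, 16 were lower (median -1.97), among them Mfap4 (-3.91 ± 0.34), Fbln1 (-3.21 ± 0.25) and Fbn2 (-2.97 ± 0.19). Elastin, Eln, stood at 85.8, 38.8 and 60.8 against 349.8, 273 and 237 (-2.30 ± 0.18). The crosslinking enzymes parted: Loxl2 was higher (0.97 ± 0.14) and Lox (-2.36 ± 0.39) and Loxl1 (-2.15 ± 0.18) were lower.

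Metalloproteases also parted, with 7 of 22 tested genes higher and 10 lower. The higher count was 4 without tumour 1, without the tumour block and among mural cells with no Mmp9 UMI. In the last of these settings Mmp9 itself could not be called higher. Mmp9, a gelatinase, stood at 200.3, 172 and 46.0 in mural cells and 6.60, 17.0 and 4.92 in fibroblasts (3.86 ± 0.31, edgeR adjusted p = 7.68e-05), from UMIs in 14.2%, 15.8% and 5.86% of mural cells. Mmp10 (3.44 ± 0.61) and Mmp13 (2.81 ± 0.41) were higher too. The other gelatinase, Mmp2, was lower, at 72.8, 83.2 and 70.0 against 564, 435 and 1184 (-3.18 ± 0.29), and so were Mmp3 (-4.49 ± 0.43) and the inhibitors Timp1 (-1.24 ± 0.19), Timp2 (-1.30 ± 0.20) and Timp3 (-1.29 ± 0.26). Of 14 tested integrin subunits, 8 were higher and 3 lower; 5 were higher without tumour 1, without tumour 3 and without the tumour block. Itga1, a receptor chain for collagen, stood at 169, 159 and 141 against 12.8, 10.2 and 23.6 (3.30 ± 0.26), and Itga7, a laminin receptor chain, at 42.9, 34.9 and 63.5 against 4.53, 5.57 and 2.73 (3.46 ± 0.33). Itga4 had 133 UMIs in mural cells and 3 in fibroblasts, a ratio of 203 (95% interval 67.9 to 996).

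Wnt ligands and their secreted antagonists were one-sided. Of 19 tested genes, 17 were lower in mural cells and none was higher (median -2.24), and 12 were lower without the tumour block. Sfrp1, a Wnt antagonist, stood at 142, 56.3 and 83.8 in mural cells and 1701, 762 and 1537 in fibroblasts (-3.89 ± 0.16, edgeR adjusted p = 7.7e-06). Wif1 stood at 1.24, 3.17 and 9.21 against 55.0, 48.5 and 285, highest in the fibroblasts of tumour 3 (-4.86 ± 0.25). Sfrp2 (-4.30 ± 0.34) and Sfrp4 (-4.57 ± 0.29) were lower by similar amounts. Ligands were lower too, with Wnt2 at 6.22, 11.1 and 1.84 against 56.4, 107 and 37.1 (-3.42 ± 0.23) and Wnt4 at 28.0, 42.0 and 18.4 against 174, 166 and 65.0 (-2.24 ± 0.20), and so was the target gene Axin2 (-1.28 ± 0.23).

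Hedgehog response genes, which stromal cells of pancreatic tumours switch on in answer to the epithelium, were lower for 6 of 10 tested. Gli1, the usual readout, stood at 1.87, 2.38 and 3.68 in mural cells and 11.4, 9.17 and 19.4 in fibroblasts (-2.39 ± 0.35, edgeR adjusted p = 0.00155). Ptch1, the receptor and target, stood at 14.9, 11.9 and 27.6 against 41.0, 29.8 and 103 (-1.66 ± 0.19). The co-receptors Boc (-2.15 ± 0.31) and Cdon (-3.48 ± 0.31) were lower, while Gli2 (-0.26 ± 0.29) and Gli3 (-0.30 ± 0.20) were not called. Foxf1 was the 1 higher gene (1.92 ± 0.25).

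In the IGF axis 7 of 11 tested genes were lower and 1 was higher. The ligand Igf1 stood at 54.7, 49.1 and 14.7 in mural cells and 902, 297 and 826 in fibroblasts, lowest among fibroblasts in tumour 2 (-4.04 ± 0.47, edgeR adjusted p = 0.000482; -4.80 without tumour 2, -3.45 without tumour 3). The binding protein Igfbp6 stood at 82.1, 28.5 and 43.3 against 689.6, 542 and 803 (-3.83 ± 0.24), and Igfbp7, the higher gene, at 10762, 9631 and 14525 against 6809, 7497 and 10317 (0.45 ± 0.09), a call lost without tumour 1 and without the tumour block. The receptor Igf1r did not pass the test, at 35.5, 52.3 and 57.1 against 29.8, 46.8 and 66.0 (0.01 ± 0.16).

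TGF-beta and BMP genes had 14 of 34 tested lower and 5 higher, beside 12.4% lower and 10.3% higher over all tested genes. Without tumour 1 the list had 9 lower and 3 higher. Without tumour 2 it had 14 lower and 8 higher of 37, and without the tumour block 7 lower and 2 higher. The type II receptor Tgfbr2 stood at 62.8, 79.2 and 96.7 in mural cells and 273, 205 and 329 in fibroblasts (-1.81 ± 0.17, edgeR adjusted p = 0.000185). Follistatin, Fst, which traps activin, stood at 5.60, 24.6 and 4.60 against 104, 121 and 114 (-3.42 ± 0.37), and Gdf10 was lower as well (-3.47 ± 0.34). Bmp7 had 1 UMI in mural cells and 187 in fibroblasts, a fibroblast-to-mural ratio of 40.9 (95% interval 7.25 to 1623). Id4 (2.53 ± 0.24), Id3 (0.90 ± 0.12), Tgfb2 (0.87 ± 0.15), Tgfb1 (0.69 ± 0.20) and the co-receptor Eng (0.56 ± 0.13) were higher.

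Complement was lower in mural cells for 11 of 13 tested genes (median -2.11). C3, the central component, stood at 217, 56.3 and 66.3 CPM in mural cells and 2159.7, 534 and 1219 in fibroblasts (-3.62 ± 0.20, edgeR adjusted p = 1.87e-05). C4b (-3.52 ± 0.20), Cfb (-3.08 ± 0.28) and the inhibitor Cd55 (-3.81 ± 0.34) were lower by amounts near that. Without cells that had a mesothelial UMI, 9 of 11 tested complement genes were lower.

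Chemokines and cytokines were lower for 10 of 18 tested and higher for 2, beside 12.4% lower and 10.3% higher over all tested genes. Cxcl14 stood at 103, 113 and 40.5 in mural cells and 367, 489 and 616 in fibroblasts (-2.58 ± 0.34, edgeR adjusted p = 0.000981), and Cxcl12, which retains leukocytes, at 29.9, 20.6 and 2.76 against 139, 51.4 and 97.4 (-2.45 ± 0.42). Il6 was higher in mural cells, at 199.6, 77.7 and 274 against 154, 42.6 and 129 (0.71 ± 0.17, edgeR adjusted p = 0.0172), and so was Il34, a ligand of the macrophage receptor CSF1R (1.78 ± 0.37). Ccl2, at 233, 375 and 82.8 against 327, 219.7 and 70.9, and Cxcl1 were not called. Without tumour 1, 6 of the list were lower, and without the tumour block 2 were lower and 1 was higher.

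Interferon response and MHC class I genes had 2 of 21 tested higher, 4 lower and a median of -0.08, beside 10.3% higher and 12.4% lower over all tested genes; without tumour 1, 1 was higher and 2 were lower. Ifitm1 differed most, at 856, 905 and 818 in mural cells and 184, 115 and 331 in fibroblasts (2.11 ± 0.28, edgeR adjusted p = 0.000981). H2-K1 was lower (-0.85 ± 0.15), while H2-D1 (0.08 ± 0.16) and B2m (0.10 ± 0.10) were not called. These counts turned to 7 higher and 1 lower when cells with a mesothelial UMI were left out. Of 20 tested immediate early and heat shock genes, which mark the stress of dissociation, 1 was higher and 3 were lower, beside 22.6% called over all tested genes. Without tumour 1, 2 were higher and none was lower in edgeR (1 lower at an unadjusted p under 0.05), and without cells that had a mesothelial UMI 5 were higher and 2 lower.

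Genes of the cell cycle were higher in mural cells: 15 of 21 tested genes of S, G2 and M phase, with none lower and a median of 1.00. Mki67, a marker of cycling cells, stood at 26.1, 20.6 and 12.9 in mural cells and 9.32, 8.84 and 1.64 in fibroblasts (1.63 ± 0.33, edgeR adjusted p = 0.00819). Ube2c, an enzyme of mitotic exit, stood at 88.9, 89.6 and 16.6 against 16.0, 34.4 and 1.78 (2.07 ± 0.28), and Top2a at 63.4, 51.5 and 7.36 against 12.7, 35.7 and 1.78 (1.47 ± 0.35). All 15 were higher in mural cells in each tumour and lowest in tumour 3 among the mural sums. The arms of most of them overlapped between tumours. The count was 4 without tumour 1 and 0 without the tumour block in edgeR (4 of 21 at an unadjusted p under 0.05), and it was 10 with DESeq2, 9 of 19 tested without cells that had an endothelial UMI and 8 of 11 tested when cells were thinned before gating.

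**Figure D4:**
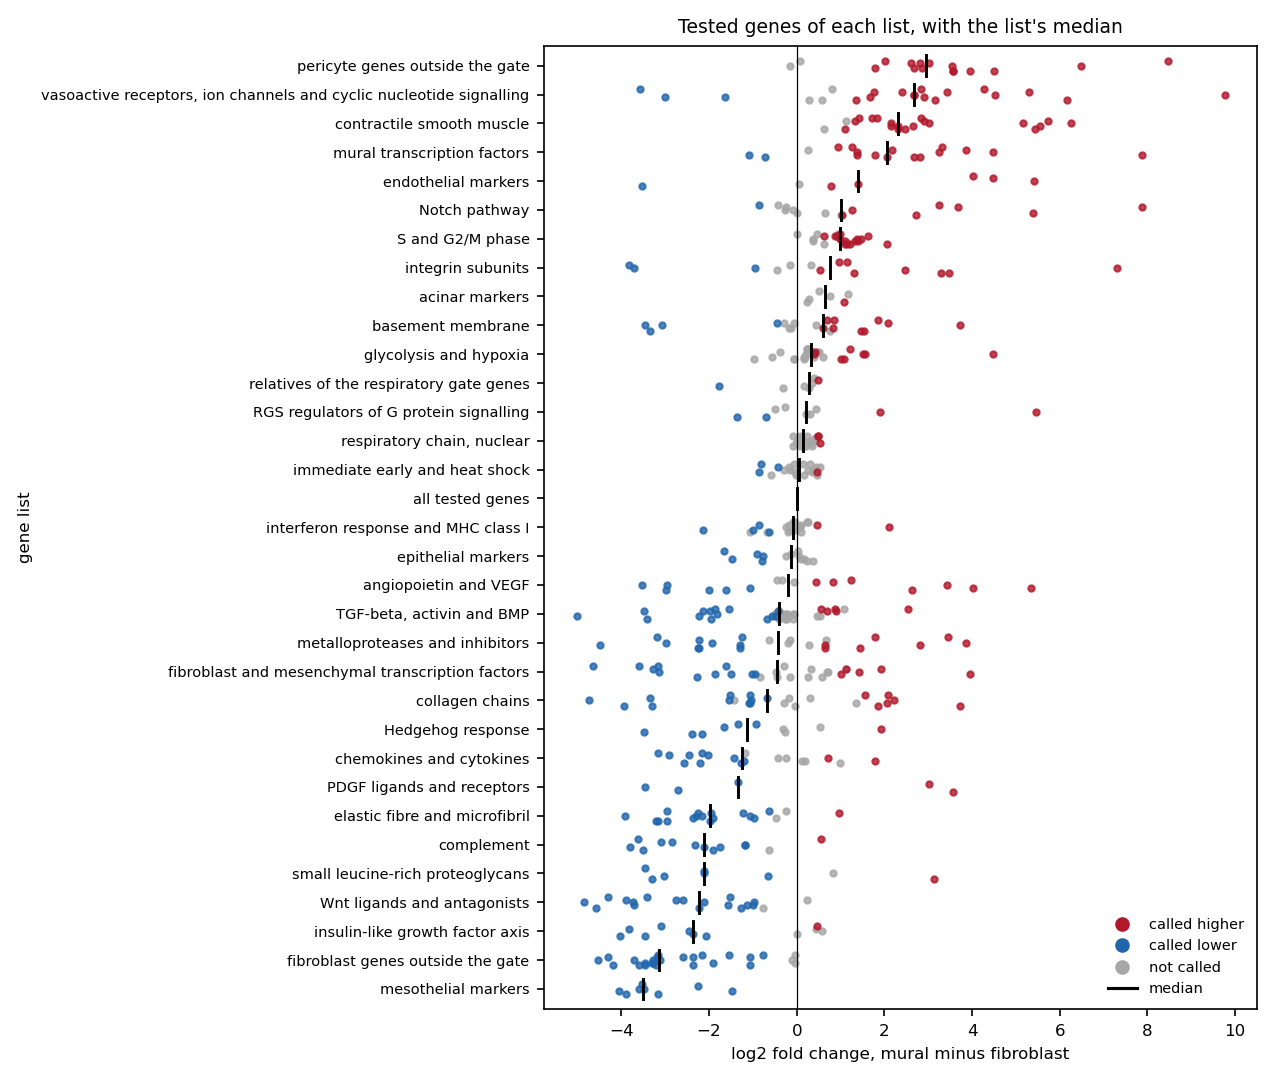
Log2 fold change (mural minus fibroblast, horizontal axis) of every tested gene of each list with at least 5 tested genes; red points were called higher, blue points lower, grey points were not called, and black bars are medians. Pericyte genes have the highest median (2.94) and mesothelial markers the lowest (-3.50), below fibroblast genes (-3.14).

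Since the gate set the arms, values just inside and outside its edge are given without a test. Cells with 3 of the 5 mural genes numbered 57, 53 and 78, and the 87, 198 and 87 cells with 2 of them were in neither arm. Pdgfrb stood at 479, 201 and 754 CPM in cells with 3 genes and 208, 77.3 and 433 in cells with 2. Lum stood at 86.5, 203 and 96.6 with 3 genes and 430.1, 224 and 254 with 2, so that in tumour 2 the cells on both sides of the edge had similar Lum. In cells with all 5 genes Lum was at 54.2, 23.6 and 30.2. At the fibroblast edge, the 11, 21 and 17 cells with 2 Dcn UMIs, just inside, had Lum at 43.8, 128 and 398. The 13, 26 and 14 cells with 1 Dcn UMI, just outside, had it at 162, 63.8 and 414, and fibroblasts with more than 2 at 992, 709 and 1264.

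**Figure D5:**
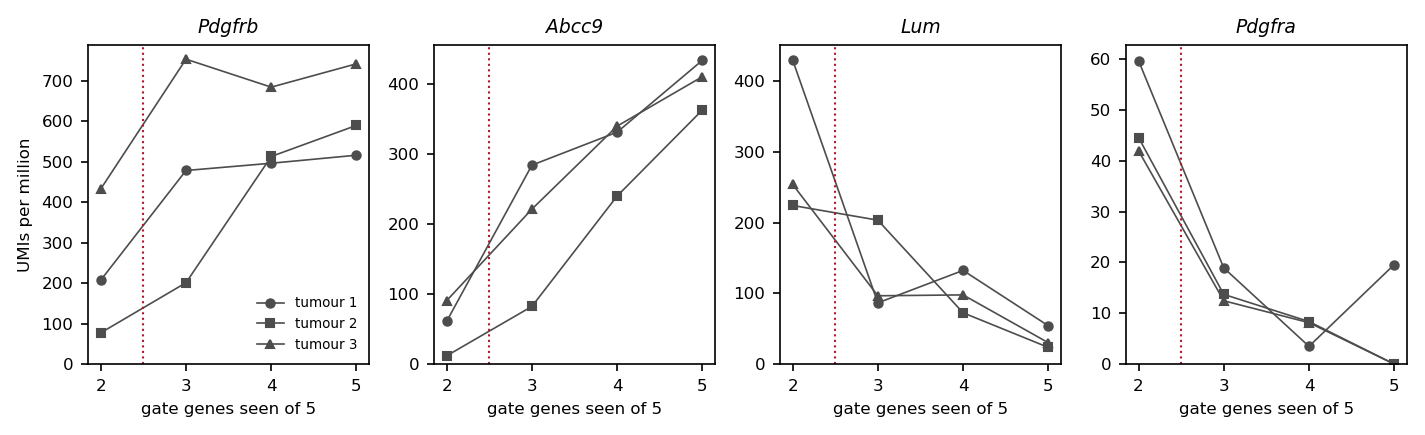
Level of 4 genes in CPM (vertical axes) in cells with 2, 3, 4 or 5 of the 5 mural gate genes (horizontal axes) in each tumour; the dotted line marks the edge of the gate. From 2 to 5 gate genes Pdgfrb and Abcc9 go up and Lum and Pdgfra go down in all 3 tumours, with Pdgfra at 19.6 CPM in tumour 1 at 5 genes.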

How the data were processed

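Single-cell 3' libraries of 3 tumours were analysed. The deposited matrices hold UMI counts per gene and barcode, and per the submitters' processing notes Cell Ranger 2.1.1 and Seurat 3.0 were used. The role of each, the build and the annotation were not stated in those notes or in the labels. A cluster table that the authors deposited gives log2 fold changes of clusters against other cells.

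Cells passing the gates were summed per arm and tumour. The 11 gate genes and 13 mitochondrial genes stayed in the totals and out of the tests. edgeR 4.0.16 (R 4.3.3) tested the counts with TMM scaling, filterByExpr, the tumour as a block and Benjamini-Hochberg adjustment at 0.05; each tumour gave both sums of its pair, which is what pairs them. SE is the log2 fold change divided by the root of F. DESeq2 1.42.0 was an alternative. The test was checked on simulated data in which far fewer genes differed than were called here. That check does not cover so broad a difference. Doublets were kept; leaving out those called by Scrublet was an alternative. Rates rest on 1086347 to 7727154 UMIs per sum, and intervals cover counting error only.

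The 12 highest and 12 lowest genes by log2 fold change were named, among those called, of 1 sign in 3 tumours and with a mean of at least 20 CPM, with a fixed panel and lists. Members and lists were chosen with earlier results of these data known. Promoter windows came from RefSeq (GRCm38.p6).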

Additional observations from a re-analysis of the deposited data

How the results depend on the processing

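The tumour block mattered to the counts: with no replicate block, and so no pairing of the arms by tumour, 979 genes were called (438 higher, 541 lower) in place of 2317. Leaving out 1 tumour gave 1289 to 2591 called genes, 593 to 1156 higher and 696 to 1435 lower, lowest without tumour 1 and highest without tumour 2. DESeq2 called 1607 genes. Without any filter on low counts 3290 of 18008 genes were called. The other settings called 1706 (sums thinned to the smallest total) to 2606 genes (1 mural gene allowed in fibroblasts). The mean mural share was 2.75% when 4 of the 5 genes were asked for and 2.88% when cells were thinned to 3000 UMIs before gating.

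Of the values of named genes under the alternatives, 771 kept their direction and side of the threshold, 5 lost the call, 1 gained it and 1 turned. Prrx1, which was not called, turned to -0.011 without cells with a mesothelial marker UMI (edgeR adjusted p = 0.971), a setting chosen after seeing the data. The median of the angiopoietin and VEGF list turned from -0.19 to 0.31 (cells thinned before gating) and 0.0046 (DESeq2), and to 0.10 without tumour 1; leaving out 1 tumour gave -0.21 to 0.10. The cause was not tested. Genes near 3 counts per sum are limited by depth, and mural sums are the shallower.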

Other observations

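Adipocyte genes were unevenly spread. Fabp4, a fatty acid carrier also made by vessel cells, stood at 906, 692 and 1325 CPM in mural cells and 76.4, 7.86 and 149.5 in fibroblasts (log2 fold change 4.03 ± 0.52, edgeR adjusted p = 0.000868), and Pparg was higher too (2.91 ± 0.45). Lpl was lower, at 80.9, 77.7 and 110.5 against 308, 333 and 181 (-1.64 ± 0.25). Of 13 epithelial markers, 5 were lower in mural cells and none higher; 1 was lower without cells that had a mesothelial UMI, and none without the tumour block in edgeR (2 at an unadjusted p under 0.05). Of 9 Schwann cell markers only S100b was tested, and it was not called.

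The authors' deposited table compares 2 clusters that carry mural genes, numbered 12 and 15, with other cells of the series. The authors' deposited table gives log2 fold changes of 5.60 and 5.44 for Rgs5, 4.37 and 4.55 for Pdgfrb, and 4.79 and 6.72 for Ednrb. For Acta2 the authors' deposited table gives 3.95 and 2.62, for Mmp9 5.35 and 3.02, and for Ndufa4 -1.50 and -1.80.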
